A study of Mus musculus with 2 samples.

Results

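The genes described here are the nuclear-encoded subunits of oxidative phosphorylation, measured by single-cell RNA-seq in myeloid-sorted cells of the mouse colon. They were taken by symbol from the gene tables of both libraries: names beginning with Ndufa, Ndufb, Ndufc, Ndufs, Ndufv, Sdha to Sdhd, Uqcr, Cox4 to Cox8 or Atp5, without the Ndufaf and Sdhaf assembly factors and without pseudogene symbols, and with at least 10 UMIs over both libraries (unique molecular identifiers, which count each captured RNA molecule once however often PCR copied it). The symbols matched 85 of the 31053 rows, and 78 passed the minimum. These comprised 36 genes of complex I, 4 of complex II, 8 of complex III, 14 of complex IV and 16 of complex V. The 7 rows left out were Cox6a2 with 8 UMIs, Ndufa4l2 with 5, Cox4i2 with 3, and Cox7b2, Cox8b, Cox8c and a second Atp5o row with 0. Just above the minimum stood Atp5s and Cox6b2 with 45 UMIs each and Cox7a1 with 68.

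The cells came from colons of bone marrow chimeras, in which CD45.1 recipients had received CD45.2 marrow. One donor genotype was IL-10R KO, which lacks a subunit of the receptor for the anti-inflammatory cytokine IL-10 in every donor cell, and the other was IL-10R/CerS2 DKO, which also lacks ceramide synthase 2, which attaches very long fatty acids in the making of ceramides. Both groups thus carried the receptor deletion, and the labels named no wild-type library, no age, no sex and no number of mice. With 1 library per genotype, genotype cannot be told apart from mouse, sort or library, no test between genotypes was made, and every interval below covers counting error only.

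Oxidative phosphorylation takes place at the inner mitochondrial membrane. Complexes I and II take electrons from NADH and succinate, complex III passes them to cytochrome c, complex IV hands them to oxygen, and complex V uses the proton gradient so built to make ATP. Most subunits are encoded in the nucleus and imported, and a small set, including the catalytic core of complex IV, is encoded by mitochondrial DNA. Macrophages that respond to inflammatory signals are known to shift their energy supply towards glycolysis.

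Depth differed between libraries: the KO library had 2584 barcodes and 12549471 UMIs and the DKO library 742 barcodes and 3414944 UMIs, and 1 barcode sequence occurred in both. After filtering, 2443 KO cells with a median of 4715 UMIs and 730 DKO cells with a median of 3722 UMIs remained. Cells were gated by marker lists, with 3 or more markers of a class required. The labelled cell type, colon macrophage, fitted 1558 KO and 343 DKO cells, which had a median of 7 of the 12 monocyte/macrophage markers. The gates also took 217 KO and 166 DKO cells with B cell markers, 297 and 112 with markers of T cells and innate lymphocytes, 165 and 47 with neutrophil markers, and 52 and 25 with dendritic cell markers, although the sort for CD11b, CD11c and CD64 was meant to leave lymphocytes and neutrophils out. In the monocyte/macrophage-gated cells Cers2 had 446 UMIs, or 49.7 CPM (counts of a gene per 1000000 UMIs of the cells summed), in KO and 0 in DKO, at least 33.1-fold lower at a floor of 3 counts. Il10rb, a subunit of the IL-10 receptor, stood at 4.24 and 5 CPM, which checks nothing because a 3′ tag may lie outside the deleted part.

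Abundance was spread very unevenly over the 78 genes. In the KO monocyte/macrophage-gated cells the median member had 198 CPM, within a range of 1.78 to 1680, and 63 members reached 100. The 10 most abundant members held 38.4% of all member UMIs. Levels of different genes are tags per transcript end and were not divided by length. Complex IV was led by Cox8a, a small membrane subunit of cytochrome c oxidase, with 24178 UMIs over both libraries, followed by Cox7c with 17599. Complex V was led by Atp5e, the epsilon subunit of the F1 head, with 19431 UMIs, and by Atp5l, the g subunit of the membrane part, with 13618. Uqcrh, the hinge subunit, had 9939 UMIs and Uqcrq 7381 in complex III, Ndufa2 had 6575 and Ndufa1 5015 in complex I, and Sdhb, the iron-sulfur subunit, had 2289 and Sdhd, a membrane anchor, 1117 in complex II. Atp5e exceeded Atp5a1, which encodes the alpha subunit, by a ratio of 6.44, although 3 alpha subunits and a single epsilon subunit are present in each F1 head. The genes lay on 19 chromosomes. Cox8a was at chr19:7215153-7217616 on the minus strand and Atp5e at chr2:174461072-174464105 on the minus strand of GRCm38.

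Promoter sequences were searched because most members lay on the same side in the comparisons below. RefSeq promoters on GRCm38.p6 were found for 65 of the 78 members, and the 250 bases before each RefSeq start were compared with those of 27025 genes on both strands. The letters GCGCATGC, the core that nuclear respiratory factor 1 (NRF1) is known to bind, occurred before 8 of 65 members, or 12.3%, against 2.56% of all genes. Other letters were near the share of all genes: CCGGAAGT, known for the ETS factor GABPA, in 4.62% against 3.23%, AAGATGGC (YY1) in 1.54% against 1.83%, AAGGTCA (estrogen-related receptors) in 7.69% against 4.7%, ACGTG (hypoxia-inducible factors) in 18.5% against 18.5%, CCAAT in 43.1% against 37.5% and GGGCGG (SP factors) in 35.4% against 35.4%. A match of letters is no evidence of binding. The 8 members with the NRF1 letters are shown because they cover complexes I, II, IV and V. Capitals mark GCGCATGC, each run is written 5′ to 3′ on the strand named, and where the letters occurred on both strands the strand of the gene is given.
Ndufa8, complex I, chr2:36049339-36049356, plus strand: GCGCATGCgtctccagcg
Ndufa6, complex I, chr15:82354357-82354384, plus strand: gctctgcaatGCGCATGCtctaccgcgg
Ndufa11, complex I, chr17:56717692-56717719, plus strand: cctgcactgcGCGCATGCgcgcacgcct
Sdhb, complex II, chr4:140961207-140961234, minus strand: ggcccgtaggGCGCATGCccactgggct
Cox6a1, complex IV, chr5:115349103-115349130, minus strand: caggaacgggGCGCATGCgcgctctcgc
Atp5k, complex V, chr5:108434432-108434459, minus strand: tttcactgcgGCGCATGCgcctttctgg
Atp5l, complex V, chr9:44920965-44920992, plus strand: tgggggaaatGCGCATGCgttattggtt
Atp5g2, complex V, chr15:102671072-102671099, minus strand: ggctccggccGCGCATGCgcagagcctt
The window for Ndufa8 ends beside the match, so fewer flanking bases are shown. The runs lie before the RefSeq start, but those of 4 members (Ndufa8, Sdhb, Atp5k and Atp5g2) overlap the gene in the other annotation used here for gene positions, which starts further upstream.

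Across cell classes the summed members took a similar share of the UMIs in most gates and a far smaller one in neutrophils. Monocyte/macrophage-gated KO cells had 22822 CPM from the 78 genes (95% interval 22723 to 22921) and DKO cells 20511 (20313 to 20711). T cell and innate lymphocyte-gated cells had 25125 in KO and 21412 in DKO, dendritic cell-gated cells 24516 and 20382, and B cell-gated cells 18484 and 19594. Neutrophil-gated cells had 9497 in KO and 7622 in DKO. In each of these 5 classes except the B cells, the KO library had the higher sum.

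**Figure D1:**
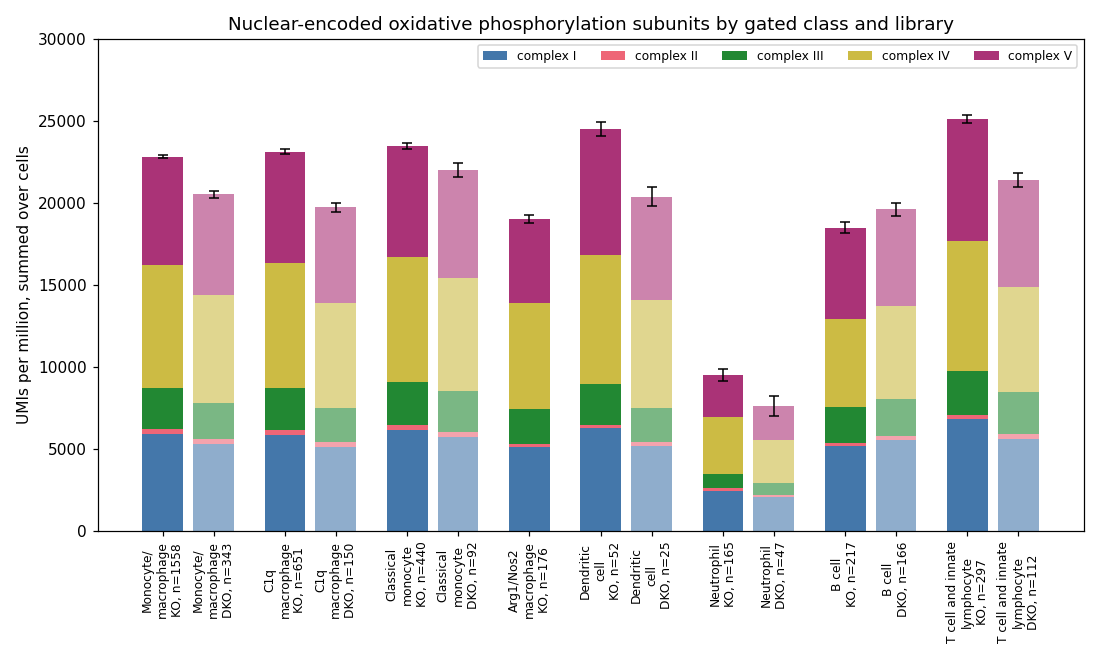
Summed CPM of the 78 nuclear-encoded subunits for each gated class (bars, KO in full colour, DKO in pale colour, n = cells), stacked by complex, with exact Poisson 95% intervals of the sum. Neutrophil-gated cells stand lowest, at 9497 in KO and 7622 in DKO, and the Arg1/Nos2-gated cells of KO stand at 19003.

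The complexes kept nearly the same proportions in each class. In KO monocyte/macrophage-gated cells complex I took 25.8% of member UMIs, complex II 1.34%, complex III 11%, complex IV 32.9% and complex V 28.9%, and in DKO these shares were 25.7%, 1.45%, 10.7%, 32.2% and 29.8%. Complex IV took 36.9% in KO neutrophils and 29.2% in KO B cells. The order of lymphocytes and macrophages in the summed level depended on what the UMIs were divided by. Cytosolic ribosomal protein genes alone took 366822 CPM in KO B cells and 185301 in KO monocyte/macrophage-gated cells. The B cell sum was lower than that of monocyte/macrophage-gated cells by a log2 ratio of -0.30 (-0.33 to -0.28) over all UMIs, and the ratio was 0.09 when ribosomal protein and mitochondrial genes were left out of the total. That of T cells was higher by 0.14 (0.12 to 0.15) over all UMIs and became -0.20 with TMM scaling, which centres the bulk of genes.

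The 13 mitochondrially encoded subunits stood in a similar ratio to the nuclear ones in KO monocyte/macrophage-gated cells and neutrophils and in a higher one in B cells. KO B cells had 22388 CPM from them, against 13327 in monocyte/macrophage-gated cells and 5833 in neutrophils, so that the ratio of mitochondrial to nuclear UMIs was 1.21, 0.584 and 0.614. In DKO the corresponding ratios were 0.969, 0.616 and 0.199. The low DKO neutrophil value came from 47 cells.

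**Figure D2:**
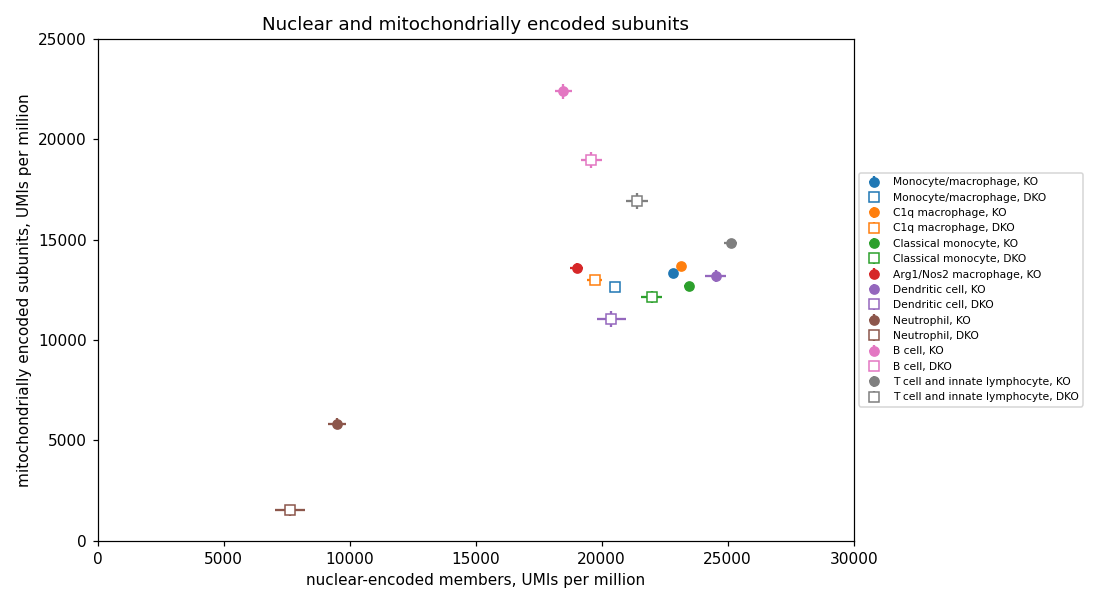
Summed CPM of the nuclear-encoded members (x axis) and of the 13 mitochondrially encoded subunits (y axis) in each gated class, filled circles for KO and open squares for DKO, with exact Poisson 95% intervals. B cells lie highest on the y axis, at 22388 in KO and 18979 in DKO, and neutrophils lowest on both axes.

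Between genotypes, the nuclear-encoded subunits were lower in DKO than in KO monocyte/macrophage-gated cells by a small amount shared by most of them. The summed log2 ratio of DKO over KO was -0.15 (-0.17 to -0.14), and 56 of 78 members lay below 0 and 22 above it. The median member was at -0.13, with quartiles of -0.23 and 0.02, while the median of all 10906 genes with 10 or more UMIs was 0.09 and 40.7% of them lay below 0. Hence the direction of the members was opposite to that of the typical gene, and with TMM scaling, which moved all ratios by -0.10, the summed ratio was -0.26. Few members moved far. Of the 78, 1 had a log2 ratio of 0.5 or higher, against 18.0% of all genes, and 1 had -0.5 or lower, against 11.8%, and both were among the rarest members: Atp5s with 7 UMIs in DKO and 16 in KO (1.03, -0.55 to 2.33) and Cox7a1 with 3 and 47 (-1.60, -4.13 to -0.17). Among the 6819 genes with 100 or more UMIs the shares past 0.5 and -0.5 were smaller, at 8.21% and 7.38%. The counting interval lay below 0 for 36 members, against 8.75% of all genes, and above 0 for 2, against 14.1%. The abundant members have narrow intervals, so this share also reflects their depth.

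**Figure D3:**
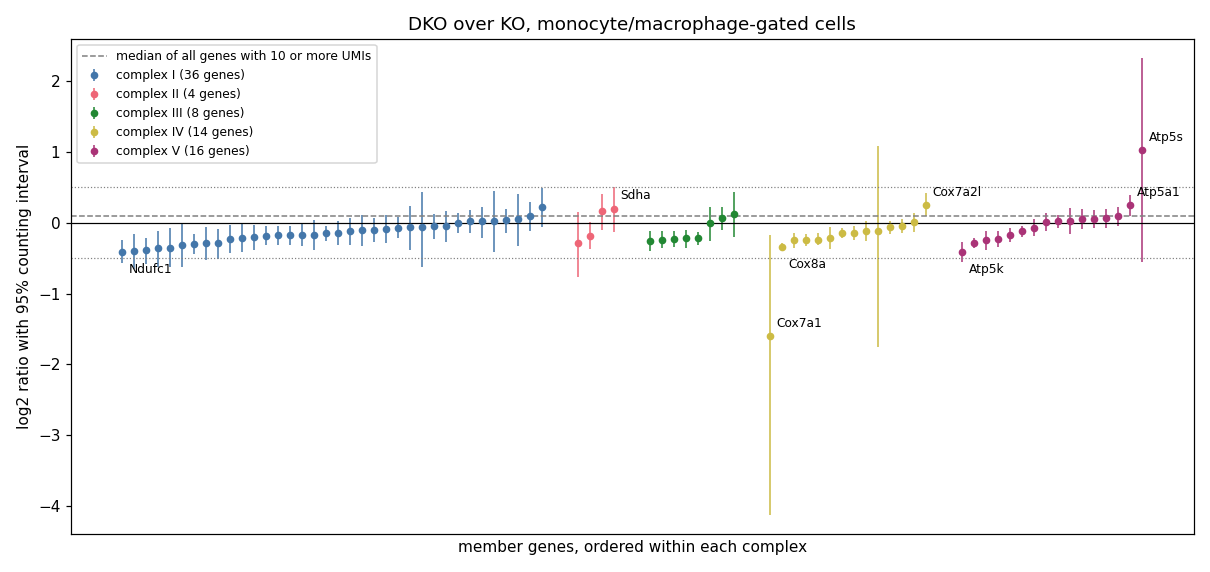
Log2 ratio of DKO over KO in monocyte/macrophage-gated cells for each of the 78 members (points, with exact 95% counting intervals), ordered within complexes, dotted lines at 0.5 and -0.5 and a dashed line at the median of all genes (0.09). The bulk of points lies between -0.41 and 0.25, and 56 are below 0.

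In complex I the summed level was 5277 CPM in DKO and 5878 in KO, a log2 ratio of -0.16 (-0.19 to -0.13), and 29 of 36 members were below 0. When the members were grouped by role after their values had been seen, the 7 core subunits, which carry the flavin and the iron-sulfur clusters or the quinone site, had a summed ratio of -0.03 (-0.13 to 0.06), and the 29 accessory subunits had -0.17 (-0.20 to -0.14), with 26 below 0. Among the accessory subunits, Ndufc1 had 178 CPM in DKO and 236 in KO (-0.41, -0.57 to -0.25) and Ndufb6 81.1 and 107 (-0.40, -0.65 to -0.16), the lowest ratios of the complex among members with 100 or more UMIs. The most abundant members, Ndufa2 with 412 and 457 and Ndufa1 with 288 and 327, differed by -0.15 and -0.18.

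Complex II, the succinate dehydrogenase, also serves the tricarboxylic acid cycle and showed no shared direction. Its sum was 297 CPM in DKO and 306 in KO (-0.04, -0.17 to 0.09). Sdha, the flavoprotein, had 53 in DKO and 46.5 in KO (0.20, -0.13 to 0.50), and Sdhb 137 and 155 (-0.18, -0.37 to 0.01). Of the membrane anchors, Sdhc had 24 and 29.5 (-0.29, -0.77 to 0.15) and Sdhd 83.1 and 74.7 (0.16, -0.10 to 0.40). All 4 intervals include 0, so differences of these sizes were not resolved at this depth.

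In complex III the sum was 2205 in DKO and 2518 in KO (-0.19, -0.24 to -0.14). Both core proteins and the Rieske iron-sulfur protein together had 335 and 323 (0.05, -0.07 to 0.18), whereas the other 5 subunits had 1870 and 2195 (-0.23, -0.28 to -0.18) and each of the 5 was below 0. Among them, Uqcrh had 524 in DKO and 611 in KO (-0.22) and Uqcrq 420 and 492 (-0.23).

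Complex IV had 6614 in DKO and 7515 in KO (-0.18, -0.21 to -0.16), with 12 of 14 members below 0. Cox8a, the most abundant member of all, had 1324 and 1680 (-0.34, -0.40 to -0.28), and Cox7c had 1051 and 1163 (-0.15). Subunit isoforms mostly stayed with the forms known from non-muscle tissue. Cox4i1 had 581 in DKO and 599 in KO (-0.04), Cox6a1 208 and 240 (-0.21), Cox6b1 470 and 519 (-0.14) and Cox7b 258 and 281 (-0.12). Cox6b2, known from testis, had 6 and 31 UMIs in all. Within the Cox7a group, Cox7a2l, which is known to join complexes III and IV in supercomplexes, had 189 and 159 CPM (0.25, 0.09 to 0.42), and its share of the UMIs of Cox7a1, Cox7a2 and Cox7a2l was 32% in DKO (29.4% to 34.8%) and 24.8% in KO (23.7% to 25.9%). Cox7a2 went the other way, with 400 and 477 (-0.25, -0.36 to -0.14). Ndufa4, first named for complex I and now known as a complex IV subunit, was level at 287 and 286 (0.01, -0.13 to 0.14).

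In complex V the sum was 6119 in DKO and 6606 in KO (-0.11, -0.14 to -0.08), but only 7 of 16 members were below 0. Atp5e had 1059 and 1286 (-0.28), Atp5l 852 and 926 (-0.12), and Atp5k, the e subunit that holds dimers of the enzyme together, 249 and 331 (-0.41, -0.55 to -0.27). Atp5a1, the alpha subunit, had 237 in DKO and 200 in KO (0.25, 0.10 to 0.39). The 3 genes for the c ring encode the same mature protein, and their sum was 1182 and 1164 (0.02, -0.04 to 0.09). Their proportions were also alike, with Atp5g1, Atp5g2 and Atp5g3 at 25.1%, 49.4% and 25.5% in KO and 24.8%, 49.2% and 25.9% in DKO.

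Members with short transcripts had the lower ratios. Over the 78 members, Spearman's rho between the log2 ratio and the median length of the protein-coding transcripts was 0.528, and it was 0.0132 over 6734 genes with 100 or more UMIs. The 59 members under 1000 bases had a median ratio of -0.17 and the 19 longer ones 0.05, while the medians of all genes split the same way were 0.02 and 0.07. Genes of a sample share its library and its depth, so rho is a description across genes. Whether length, role or abundance goes with the ratio cannot be told apart here, since the small accessory subunits are also the short and abundant ones. Within the monocyte/macrophage cells rho was 0.491 in C1q macrophage-gated cells, 0.142 in classical monocyte-gated cells and 0.302 in cells of no sub-gate. In the other classes it was 0.323 in T cells and innate lymphocytes, 0.298 in B cells, 0.131 in dendritic cells and -0.0958 in neutrophils.

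The same direction was seen, at different sizes, in C1q macrophage-gated cells, classical monocyte-gated cells and the monocyte/macrophage cells of no sub-gate. Further sub-gates for Arg1/Nos2, Mrc1/Retnla and nonclassical monocyte cells held 3, 15 and 22 DKO cells and were not compared on their own. C1q macrophage-gated cells (651 KO, 150 DKO) had a summed ratio of -0.23 (-0.25 to -0.21), with 63 of 78 members below 0. Their median was -0.19, against 0.09 for all genes, and 1 member was at 0.5 or higher and 1 at -0.5 or lower, against 20.7% and 12.1% of all genes. For genes with 100 or more UMIs these shares were 9.25% and 6.23%. Uqcrh (-0.49, -0.64 to -0.34), Ndufs6 (-0.48, -0.83 to -0.17) and Atp5e (-0.43, -0.53 to -0.33) were the lowest members with 100 or more UMIs, and Atp5a1 was the highest of these (0.28, 0.07 to 0.48). The members past 0.5 in size were the rare Atp5s, with 4 UMIs in DKO and 7 in KO (1.38, -0.91 to 3.28), and Cox7a1, with 2 and 22 (-1.05, -4.48 to 0.68). Classical monocyte-gated cells (440 KO, 92 DKO) differed less, by -0.09 (-0.12 to -0.06), with 46 of 76 tested members below 0. Of these, 2 were at 0.5 or higher (Ndufa9 at 0.86, -0.06 to 1.68, and Ndufs1 at 0.56, -0.50 to 1.45), against 18.0% of all genes, and 3 at -0.5 or lower, against 17.6%. For genes with 100 or more UMIs these shares were 6.3% and 10.4%. Among members with 100 or more UMIs Ndufb3 was the lowest (-0.69, -1.28 to -0.18) and Atp5c1, the gamma subunit, the highest (0.45, 0.20 to 0.69). Cells in no sub-gate had -0.21 (-0.25 to -0.17). In these 3 groups of different cells, 35 members were below 0 in each, and Atp5s and Cox7a2l were above 0 in each. These counts take in members with fewer than 10 UMIs in a group, such as Atp5s, whose sign rests on few UMIs. Of all tested genes, 41% were below 0 in C1q cells, 47.9% in classical monocytes and 51% in no sub-gate. The share of all genes below 0 in all 3 groups was not computed. All 3 summed ratios compare the same pair of libraries.

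Of the lymphocytes of the same libraries, T cells and innate lymphocytes also had a lower sum in DKO, and B cells did not. T cell and innate lymphocyte-gated cells had a summed ratio of -0.23 (-0.26 to -0.20). Of 75 members, 56 lay below 0, against 55.3% of all genes, and the median was -0.23 against -0.07. In these cells, 11 members were at -0.5 or lower and 2 at 0.5 or higher, against 25.4% and 16.8% of all genes. For genes with 100 or more UMIs these shares were 16.7% and 7.28%. Ndufc2 had 94.7 CPM in DKO and 179 in KO (-0.90, -1.42 to -0.44), Ndufb3 76.7 and 130 (-0.75, -1.34 to -0.23) and Cox6a1 135 and 226 (-0.73, -1.16 to -0.34), whereas complex II was higher in DKO by 0.35 (0.06 to 0.62). B cell-gated cells had 0.08 (0.04 to 0.12), or 0.01 with TMM scaling. Of 74 members, 51 lay above 0 and 23 below it, while 45.7% of all genes lay below 0. The median member was at 0.16, against 0.05 for all genes. In B cells 2 members were at 0.5 or higher and 1 was at -0.5 or lower, against 19.4% and 16.1% of all genes. Genes with 100 or more UMIs in the B cells had shares of 6.22% and 4.02%. Ndufb3 was the highest there, with 131 and 84.1 (0.63, 0.08 to 1.20), and Ndufa6 the lowest of those with 100 or more UMIs, with 179 and 244 (-0.44, -0.85 to -0.05). Ndufb3 thus had opposite signs in both lymphocyte gates. Dendritic cell-gated cells had -0.27 (-0.31 to -0.22) from 25 DKO cells and neutrophils -0.32 (-0.44 to -0.19) from 47.

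Other genes of energy metabolism differed between the genotypes in their own ways. Beside the counts in this paragraph, 40.7% of all 10906 genes with 10 or more UMIs lay below 0. All 15 glycolysis genes were below 0 in DKO monocyte/macrophage-gated cells, with a sum of 3393 CPM against 4841 (-0.51), Slc2a1, a glucose transporter, at 43 and 99.1 (-1.20) and Tpi1 at -0.85. The 12 tricarboxylic acid cycle genes had a sum higher by 0.16, with 8 above 0, Mdh2 at 0.56 and Fh1 at 0.45. Mitochondrially encoded subunits had -0.08, with 6 of 13 above 0, mt-Nd6 at 0.43 and mt-Atp8 at 0.30. Of 37 tested assembly factors, 23 were below 0, with a summed ratio of -0.33, Cox17, the copper chaperone of complex IV, at -0.61 and Ndufaf4 at 0.88. Among regulators, 6 of 9 tested were above 0, but the summed ratio was -0.54, and Hif1a, a hypoxia-responsive factor and the most abundant of them, had 327 and 603 (-0.88). Tfb2m, a mitochondrial transcription factor, was at 0.79. Cycs (cytochrome c) was at 0.08 and Cyc1 (cytochrome c1) at -0.04. Cytosolic ribosomal protein genes had 0.04, with 53 of 77 above 0, Rpl13a at 0.45 and Rpsa at 0.36. Markers of other classes were found in both groups. The neutrophil list had 492 CPM in KO and 419 in DKO, the T cell and innate lymphocyte list 153 and 126, the B cell list 10.5 and 5 and the plasma cell list 84.2 and 48.5, whereas the dendritic cell list had 287 and 427 and the epithelial list 13 and 36. Of the lists within monocyte/macrophage cells, that of Mrc1/Retnla cells had 290 in KO and 924 in DKO, that of C1q cells 7649 and 8536, that of nonclassical monocytes 307 and 399, that of classical monocytes 3385 and 2375 and that of Arg1/Nos2 cells 2242 and 394. The part of these other cells and of the mix of sub-classes in the single ratios was not tested.

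The libraries also differed in which monocyte/macrophage cells they held. An Arg1/Nos2 gate (Arg1, Nos2, Ptges, Slc7a2, Inhba, Cxcl3, Il1a and Hilpda) took 176 KO cells and 3 DKO cells. Without them, 66 of 78 members were below 0, against 41.9% of all genes. The summed ratio of DKO over KO was then -0.19 (-0.21 to -0.18) and the median -0.17, so the difference was as large without these cells. That of glycolysis went from -0.51 to -0.18, and that of Cox17 from -0.61 to -0.39. Complex I without these cells had -0.19, complex II -0.10, complex III -0.23, complex IV -0.22 and complex V -0.16.

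Within the KO library, Arg1/Nos2-gated cells had fewer UMIs from nuclear-encoded subunits than the other 1382 monocyte/macrophage-gated cells, with 19003 CPM (18753 to 19255) against 23391. The log2 ratio was -0.30 (-0.32 to -0.28) over all UMIs, -0.18 with TMM scaling and -0.42 without ribosomal protein and mitochondrial genes in the total. Of 78 members, 70 lay below 0, against 60.4% of all 10547 genes. The median member was at -0.34, against -0.17 for all genes. At -0.5 or lower stood 24 members (30.8%), against 31.1% of all genes, so strongly lower members were no more frequent than among genes in general, and 2 members were at 0.5 or higher, against 18.5%. For genes with 100 or more UMIs these shares were 28.3% and 13.3%. Against C1q macrophage-gated cells alone the ratio was -0.28. In the Arg1/Nos2-gated cells the neutrophil list had 819 CPM and in the other cells 444, against 85847 in neutrophil-gated cells, with the neutrophil marker list holding 1 of 10 markers at 0 in the Arg1/Nos2-gated cells. The T cell and innate lymphocyte list had 366 and 121, with 7 of 14 markers at 0, and the part of these markers' cells in the ratios was not tested.

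Complexes II and V were the lowest as sums. Complex V had 5091 against 6831 (-0.42, -0.46 to -0.39), with 15 of 16 members below 0, and complex II 218 against 319 (-0.55, -0.74 to -0.36), with Sdhc at 13.8 and 31.9 (-1.17, -2.04 to -0.48), Sdhb at 101 and 163 (-0.68), Sdhd at -0.32 and Sdha at -0.18. Complexes I, III and IV had -0.24, -0.28 and -0.24. Within complex I the 7 core subunits had a summed ratio of -0.65 (-0.80 to -0.51), with 5 at -0.5 or lower, and the 29 accessory subunits -0.20 (-0.24 to -0.16). Ndufs1, the largest core subunit, had 12 UMIs against 163, or 10.3 and 20.9 CPM (-0.96, -2.00 to -0.17). This is the reverse of the comparison of genotypes, in which the accessory subunits had the lower sum.

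Ndufa4 and Ndufv3 were at opposite ends of the well-counted members. Ndufa4 had 147 UMIs, or 126 CPM, in the Arg1/Nos2-gated cells and 2420 UMIs, or 310 CPM, in the other KO cells (-1.29, -1.54 to -1.05), the lowest ratio of any member with 100 or more UMIs, with Sdhc close to it. Against C1q macrophage-gated cells alone the order was the other way, with Sdhc at -1.28 (-2.16 to -0.57) and Ndufa4 at -1.21 (-1.47 to -0.96). Ndufv3, an accessory subunit of the NADH-oxidising module of complex I, had 366 UMIs, or 315 CPM, against 1364 UMIs, or 175 CPM (0.85, 0.68 to 1.02), the highest of the members with 100 or more UMIs, and 0.76 (0.58 to 0.94) against C1q macrophage-gated cells. Ndufa2 followed with 504 and 450 (0.17, 0.04 to 0.29). Cox7a1, with 11 and 36 UMIs, was at 1.08, but its interval of -0.09 to 2.04 includes 0. Among 6323 genes with 100 or more UMIs, counted from the lowest ratio, Ndufa4 ranked 394 and Ndufv3 ranked 5892.

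**Figure D4:**
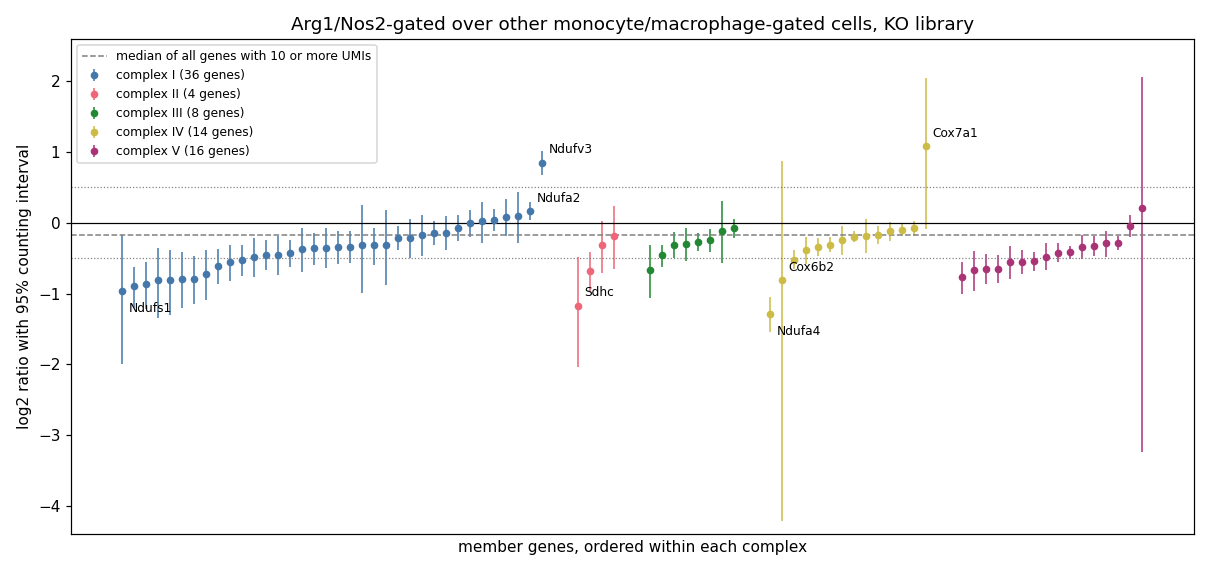
Log2 ratio of Arg1/Nos2-gated over the other monocyte/macrophage-gated cells of the KO library for each of the 78 members (points, with exact 95% counting intervals), ordered within complexes, with the median of all genes dashed at -0.17. Among members with 100 or more UMIs, Ndufa4 is the lowest at -1.29 and Ndufv3 the highest at 0.85.

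The bases before these genes are shown because they were the lowest and the highest of the members with 100 or more UMIs in the comparison with all other cells. Ndufa4 (ENSMUSG00000029632) lies at chr6:11900292-11907497 on the minus strand and Ndufv3 (ENSMUSG00000024038) at chr17:31520115-31531331 on the plus strand of GRCm38. Each run, from RefSeq on GRCm38.p6, is written 5′ to 3′ on the gene's own strand and ends before the annotated gene. Capitals in Ndufv3 mark GGGCGG at 139 bases and CCAAT, in reverse as ATTGG, at 80 bases before the start, and none of the 7 letter strings searched occurred in the 250 bases before the RefSeq start of Ndufa4, of which the 203 outside the annotated gene are shown.
Ndufa4, chr6:11907498-11907700, minus strand: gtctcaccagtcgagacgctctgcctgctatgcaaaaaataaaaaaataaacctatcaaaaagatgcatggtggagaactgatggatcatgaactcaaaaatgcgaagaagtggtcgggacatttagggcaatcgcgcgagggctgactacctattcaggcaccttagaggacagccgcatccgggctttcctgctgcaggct
Ndufv3, chr17:31519865-31520114, plus strand: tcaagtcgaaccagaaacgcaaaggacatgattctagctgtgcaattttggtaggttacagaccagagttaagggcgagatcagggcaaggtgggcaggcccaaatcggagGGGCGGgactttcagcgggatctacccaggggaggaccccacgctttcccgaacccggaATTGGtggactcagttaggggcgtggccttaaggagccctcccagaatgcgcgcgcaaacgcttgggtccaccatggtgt

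AA467197, the mouse counterpart of human C15orf48, encodes a small paralogue of Ndufa4 that is known to take its place in complex IV. It is not a member by symbol and was looked at after the value of Ndufa4 had been seen. It had 2368 UMIs, or 2037 CPM, in the Arg1/Nos2-gated cells and 1305 UMIs, or 167 CPM, in the other KO cells (3.61, 3.51 to 3.71). Counted together, Ndufa4 took 5.84% of the UMIs of both genes in the Arg1/Nos2-gated cells (4.96% to 6.83%). Its share was 66.5% in KO and 67% in DKO C1q macrophage-gated cells, 72.8% and 78.7% in classical monocyte-gated cells, and 95.5% and 91.1% in B cells. Neutrophils were the other class with little Ndufa4, at 12% and 15%. All monocyte/macrophage-gated cells together had 41.1% in KO and 73.7% in DKO, and AA467197 had 410 and 103 CPM in them (-1.99, -2.21 to -1.79), while Ndufa4 was level. These values include the 176 Arg1/Nos2-gated KO cells. Without the gated cells of both libraries AA467197 had 167 CPM in KO and 104 in DKO (-0.69, -0.91 to -0.48), and Ndufa4 had 310 and 284 (-0.13, -0.26 to 0.00).

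Shares of cells with a UMI were compared after each cell had been thinned to 2000 UMIs, which left out the shallower cells. After thinning, Ndufa4 was found in 24.7% of Arg1/Nos2-gated cells (18.5% to 31.8%, 2 cells left out), in 43.1% of the other KO cells (115 left out) and in 38.5% of the DKO cells outside the gate (31 left out). AA467197 was found in 90.2%, 13.8% and 8.41% (5.57% to 12.1%). B cells had it in 1.76% of KO and 5.84% of DKO cells (2.55% to 11.2%). T cells and innate lymphocytes had it in 10.5% of KO and 2.78% of DKO cells (0.577% to 7.9%). The DKO share outside the gate was thus within the interval of the DKO B cells and above that of the DKO T cells and innate lymphocytes. The KO share of 13.8% was above that of the KO B cells and within the interval of the KO T cells and innate lymphocytes (7.16% to 14.6%). The part of free RNA in these shares was not tested. Ndufv3 was found in 46%, 27.6% and 23.9%. Unthinned, AA467197 was found in 97.7%, 20.3% and 13.8% of the macrophage groups and in 2.76% of KO B cells, and the median depths were 6280, 5392, 5450 and 2470 UMIs.

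Levels differed stepwise with the number of Arg1/Nos2 markers found in a cell. From 0 to 6 or more markers (633, 429, 224, 74, 41, 43 and 114 KO cells), Ndufa4 went through 337, 319, 298, 226, 175, 154 and 99.1 CPM and AA467197 through 42.4, 100, 270, 659, 1276, 1882 and 2003. Ndufv3 went from 158 through 162, 212, 234, 235 and 330 to 292. The sum of the 78 members was not lower at each step, with 22527 at 0 markers, 24619 at 2, 21674 at 5 and 17404 at 6 or more. Ndufa4 was thus already lower at 3 markers, where the sum was still 24343. The mitochondrially encoded sum stayed between 12914 and 14819, and glycolysis went from 3203 to 12504. Cells with more markers also had more UMIs, with medians between 4588 and 6670. In DKO cells with 0, 1 and 2 markers (186, 113 and 36 cells), Ndufa4 had 292, 288 and 250 and AA467197 73, 53.2 and 205.

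**Figure D5:**
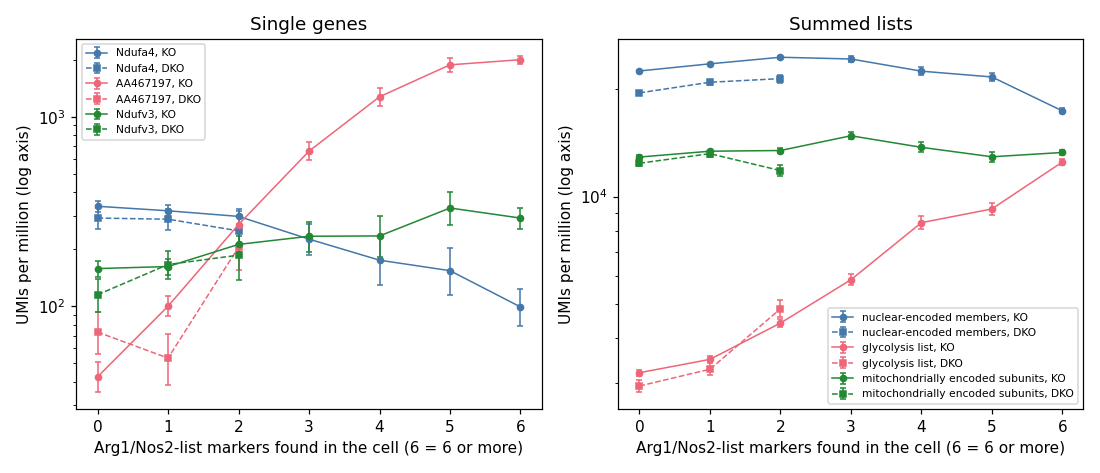
CPM on a log axis against the number of Arg1/Nos2-list markers found in a cell, for single genes (left) and summed lists (right), in monocyte/macrophage-gated cells of KO (solid) and DKO (dashed), with exact Poisson 95% intervals. Ndufa4 goes from 337 to 99.1 and AA467197 from 42.4 to 2003 in KO, while the mitochondrially encoded sum stays between 12914 and 14819.

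The other lists separated the Arg1/Nos2-gated cells in both directions. All 15 glycolysis genes were at 0.5 or higher, with 11600 CPM against 3835 (1.60) and Pgk1 and Slc2a1 both at 1.90. Tricarboxylic acid cycle genes had -0.52, with 11 of 12 below 0, Suclg1 at -1.23 and Fh1 at -1.14. Mitochondrially encoded subunits had 0.03 (0.01 to 0.06), with mt-Nd2 at -0.58 and mt-Nd3 at -0.40. Of 37 tested assembly factors 30 were below 0, and yet their sum was higher by 0.41, carried by Cox17 with 1260 against 548 CPM (1.20). Ndufaf7 had 0 UMIs against 112, at least 5.56-fold lower at a floor of 3 counts. Among 9 tested regulators, Hif1a had 978 and 547 (0.84) and Nrf1 was at -0.79 (-1.83 to 0.00), and the sum was higher by 0.63. Cycs had 245 and 400 (-0.70) and Cyc1 was at -0.22. Cytosolic ribosomal protein genes had -0.61, with 76 of 77 below 0, Rpl10a at -1.20 and Rpl3 at -1.18, a larger difference than that of the 78 members.

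Members with the NRF1 letters did not stand apart in either comparison. Their median log2 ratio of DKO over KO was -0.15 (n = 8), against -0.14 for the other members with a promoter (n = 57), and in the Arg1/Nos2 comparison both medians were -0.34.

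Neutrophil-gated cells of the KO library had lower levels of nearly every member than the monocyte/macrophage-gated cells. Of 78 members, 77 were below 0 relative to monocyte/macrophage-gated cells, against 68.4% of all genes. Of the 78, 68 were at -0.5 or lower, against 53.8% of all genes, and 0 were at 0.5 or higher, against 19.2%. For genes with 100 or more UMIs these shares were 59.2% and 16.7%. The summed ratio was -1.26 (-1.32 to -1.21), or -0.89 with TMM scaling, and the median member was at -1.58, against -0.62 for all genes. The median UMI count was 1622 in these cells and 5516 in the monocyte/macrophage-gated cells. The c ring was among the lowest groups, with Atp5g1 at 40.7 against 292 CPM, Atp5g2 at 75.2 against 575 and Atp5g3 at 56.4 against 296, and a summed ratio of -2.74. Ndufc2 had 3 UMIs (-4.09, -6.60 to -2.77) and Ndufa10 had 1 (-3.55, -9.44 to -1.64). Sdhc had 0 UMIs against 265, at least 3.14-fold lower at a floor of 3 counts, and the median member was the same with Sdhc at that bound. The highest members were Ndufb9 with 251 and 250 (0.01, -0.34 to 0.33), Ndufa7 with 307 and 311 (-0.01, -0.32 to 0.27) and Sdha with 40.7 and 46.5 (-0.14, -1.11 to 0.60). Mitochondrially encoded subunits had -1.19, ribosomal proteins -1.95 and glycolysis -0.12. The sum of assembly factors was higher by 0.64, although 34 of 37 were below 0. Among these factors Cox17 alone had 635 UMIs, or 1990 CPM, in the KO neutrophils, and Cox14 had 90.9 CPM.

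Among the other classes, KO B cells had 2 UMIs of Sdhc against 265 in the monocyte/macrophage-gated cells, or 3.3 and 29.5 CPM (-2.84, -6.22 to -1.30). Among members with 100 or more UMIs over both classes, the next lowest were Uqcr11 with 117 and 290 (-1.30, -1.67 to -0.97) and Ndufv3 with 104 and 193 (-0.88, -1.28 to -0.53). The highest of these were Uqcrc2, a core protein of complex III, with 92.4 and 47.2 (0.98, 0.54 to 1.37), Sdha (0.72, 0.23 to 1.15) and Ndufs3 (0.70, 0.35 to 1.02), so that complex II held members at both ends in B cells. The rare Atp5s, with 6 and 16 UMIs, was higher still (2.54, 0.83 to 3.90). C1q macrophage-gated and classical monocyte-gated KO cells had nearly the same sum, with a log2 ratio of -0.02 (-0.04 to -0.01) and a median member at -0.02. Single members with 100 or more UMIs still differed between them: Ndufa9 was at 0.72, Ndufa5 at 0.59 and Ndufa12 at 0.49, and Ndufb11 was at -0.57, Ndufs4 at -0.49 and Uqcrfs1, the Rieske protein, at -0.45.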

How the data were processed

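Analysed were 2 libraries, 1 per genotype, of droplet 3′ single-cell RNA-seq. The authors deposited unscaled UMI counts for each gene in each barcode, produced with Cell Ranger 6.0.1 against mm10. Following the study's filter, cells needed 300 to 5000 detected genes and no more than 10% mitochondrial UMIs, and doublets were not removed. Each cell joined the class whose marker list it carried most completely, if at least 3 markers were found and no other class tied. UMIs were summed over the cells of a class and divided by their total (CPM). Log2 ratios used 0.5 added to each sum, intervals were exact (Poisson, conditional binomial or Clopper-Pearson, 95%), and 0.5 in size on the log2 scale counted as a call. Reads of members and their pseudogenes may be shared for 5 members. Python 3.11.15, numpy 2.4.6 and scipy 1.17.1 were used, and TMM factors came from edgeR 4.0.16 in R 4.3.3. The ratios with their intervals were tested on simulated Poisson counts, the model that the intervals assume. The simulation held no variation between cells, mice or libraries, so it checks the calculation only. Alternatives changed the scaling, cell filter, gate, depth, weighting and gene minimum. Named were the 2 most abundant members per complex, the 3 highest and lowest ratios with 100 or more UMIs, isoform families and complex II. The values of 1 gene that this rule names are not reported here. The members, markers and lists were chosen with earlier results of these data known.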

Additional observations from a re-analysis of the deposited data

Results flagged for a closer look

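Cells that no gate took are in no comparison above, and UMIs of the 78 members were found in them, unevenly over the cells. Their median depth was 930 UMIs in KO and 966 in DKO. Cox8a, the most abundant member, was found in 60 of 135 KO and 15 of 34 DKO cells. The median share of member UMIs in a cell was 0.818% in KO and 0.823% in DKO, so the sums below do not describe the typical cell. The 135 such KO cells had 17187 CPM from the members (5044 UMIs), and the 34 DKO cells 19120 (2469 UMIs), levels far above the limit that a count of 0 allows. What these cells are was not determined.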

How the results depend on the processing

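Ratios are log2, DKO over KO in monocyte/macrophage-gated cells unless a class is named, with the values as reported in the text above. Over the sums, complexes, classes and counts of members, 112 alternative values stayed near the reported one, 59 moved and 5 changed sign. A ratio was taken as moved when it left the counting interval of the reported one. A count of members has no interval and was taken as moved when it changed by more than a fixed factor. With TMM scaling the sum of members was -0.26, complex I -0.26, III -0.29, IV -0.29 and V -0.21, with 4 members at -0.5 or lower. Arg1/Nos2 over other cells was -0.18, dendritic cells over monocyte/macrophage-gated cells 0.17 and neutrophils -0.89 in KO, B cells -0.59 in KO and -0.33 in DKO, and T cells -0.20 and -0.17, which changed sign. Without ribosomal protein and mitochondrial genes in the total, Arg1/Nos2 was -0.42, dendritic cells 0.25, neutrophils -1.50, B cells 0.09 in KO and 0.28 in DKO, which changed sign, and T cells 0.33 and 0.32. A stricter cell filter (500 to 4000 genes, 5% mitochondrial) gave 0.11 for T cells in KO, and a gate with 1 marker more gave -0.34 for Arg1/Nos2. Without cells holding 3 markers of another class (189 KO and 30 DKO cells) the sum was -0.19, complex I -0.19, IV -0.23 and V -0.16, with 2 members at -0.5 or lower, neutrophils were at -1.50 and B cells at -0.36 in KO and -0.10 in DKO. With cells thinned to 2000 UMIs the sum was -0.20, complex I -0.23, IV -0.22 and V -0.16, with 2 members at 0.5 or higher and 3 at -0.5 or lower, Arg1/Nos2 was -0.28, dendritic cells 0.07, neutrophils -1.35, B cells -0.33 and T cells 0.04 in KO. With each cell weighted the same the sum was -0.21, complex I -0.21, IV -0.24 and V -0.17, with 7 members at -0.5 or lower, Arg1/Nos2 was -0.24, dendritic cells 0.06, neutrophils -1.34 and T cells 0.09 in KO, and B cells 0.01, which changed sign, and T cells 0.10 in DKO. With members of any UMI count 2 were at 0.5 or higher and 3 at -0.5 or lower, and with 100 or more UMIs 0 and 0. Without the Arg1/Nos2-gated cells the sum was -0.19, complex I -0.19, IV -0.22 and V -0.16, and with sub-classes weighted as in KO the sum was -0.18 and complex V -0.16. C1q macrophage-gated cells alone gave -0.23 and classical monocyte-gated cells alone -0.09, alternatives chosen after seeing the data. The cause of these moves was not tested. The sum stayed below 0 in all 13 alternatives, from -0.26 to -0.09. Among named genes, Ndufs1 in the Arg1/Nos2 comparison rests on 12 UMIs and ranged from -1.51 to -0.14, while Ndufa4 ranged from -1.44 to -1.07, Ndufv3 from 0.73 to 1.07 and AA467197 from 3.49 to 3.76. No paired analysis was possible because each genotype had 1 library. Without replicates no ratio has an error between animals, and the 343 DKO cells limit all members with few UMIs.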
